A study of Mus musculus with 28 samples.

Results

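The genes described here are the mouse zinc finger protein (Zfp) genes, chosen by name: every named gene on the arrays numbered 309 and above whose platform symbol is Zfp followed by a number. They were 82 genes of the 8726 named genes on these arrays, read by 87 probes (88 spots), and their symbols all matched a RefSeq gene. The rule reads names alone and no measured value, though it was set with earlier results of these data known. Ratios could be tested for 40 of the 87 probes, which stand for 39 of the 82 genes. The other 47 probes were too dim or had too few values, and their replicate values are described without a test.

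A zinc finger is a short fold of a protein held together by a zinc ion. Most Zfp proteins carry arrays of C2H2 fingers that bind DNA, each finger reading a few bases, and many also carry a KRAB domain, which recruits the corepressor Trim28 and silences chromatin at the bound site. The KRAB genes are a large and fast-changing family in mammals, lie in tandem clusters, and many of them hold down retroelements. A few genes with the same symbol do other work: Zfp36 and Zfp36l1 encode CCCH fingers, which bind AU-rich messenger RNAs such as those of cytokines and hasten their decay. Transcription factor genes of this kind are usually expressed at low levels in brain.

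The samples were midbrains of male BALB/c mice aged 8 weeks. Tumour-bearing mice had been given 1000000 cells of CT-26.WT (a colon carcinoma line of the mouse) under the skin, in 300 µl PBS, and the other mice 300 µl PBS alone, and both were killed 18, 72 or 192 h later. Each 2-colour array held tumour and PBS midbrain RNA in opposite dyes, and the ratio of the dyes at a spot was the measurement. There were 5 biological replicates for 18 h, 2 for 72 h and 4 for 192 h on 21 arrays, and the labels do not say whether a replicate was 1 animal or a pool. Replicates 1 and 2 were made from polyA RNA, each in 1 dye orientation, and replicates 3 to 5 from total RNA in both orientations. A midbrain is a mixture of cells, so a lower ratio from fewer cells of a type and from less RNA per cell cannot be told apart. Of 15 markers of midbrain dopaminergic neurons 10 were on the arrays, at median brightness percentiles between 33.1 and 80.7 (Th, the rate-limiting enzyme of dopamine synthesis, at 43.5). Markers of other brain regions were as bright or brighter, 5 of the cerebellum between 44.1 and 93.1 and 3 of cortex and hippocampus between 37.5 and 89.2. The 3 colon carcinoma markers lay between 17.1 and 28.8.

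The arrays were of uneven quality. The share of spots measured in both dyes ran between 25.7% and 97.9% per array. On array 447 (72 h, replicate 3, tumour RNA in Cy3) the 2 channels had a rank correlation of -0.014 across all spots with a signal, against 0.593 to 0.982 on the other 20 arrays used. Results of the Zfp probes with the smallest p at 72 h are therefore given with and without that array. Other 72 h values include it.

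The promoters of 4 Zfp genes are printed here, 2 of the brightest (Zfp316 and Zfp617) and the 2 dimmest (Zfp354b and Zfp467) in PBS midbrain, because brightness is the first result below. The pairs were picked after their brightness was seen. They run from 250 bases before to 50 bases after the RefSeq start (build GRCm38.p6), 5′ to 3′ on the strand of the gene. Capitals mark the GC box (GGGCGG on either strand), the site of Sp1-type factors, and the CCAAT box (CCAAT on either strand).
Zfp316 (chr5:143269973-143270272, minus strand): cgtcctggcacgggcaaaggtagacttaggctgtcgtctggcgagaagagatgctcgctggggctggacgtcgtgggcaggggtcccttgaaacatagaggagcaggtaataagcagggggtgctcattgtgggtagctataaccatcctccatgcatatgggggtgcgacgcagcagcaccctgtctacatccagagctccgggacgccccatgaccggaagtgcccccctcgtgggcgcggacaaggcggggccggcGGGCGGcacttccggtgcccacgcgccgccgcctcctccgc
Zfp617 (chr8:71922575-71922874, plus strand): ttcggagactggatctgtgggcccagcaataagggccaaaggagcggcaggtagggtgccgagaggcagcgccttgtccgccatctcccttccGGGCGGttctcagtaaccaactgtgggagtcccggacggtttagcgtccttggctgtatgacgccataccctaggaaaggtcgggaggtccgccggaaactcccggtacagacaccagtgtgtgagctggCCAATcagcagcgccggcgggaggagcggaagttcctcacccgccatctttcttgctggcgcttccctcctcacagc
Zfp354b (chr11:50931586-50931885, minus strand): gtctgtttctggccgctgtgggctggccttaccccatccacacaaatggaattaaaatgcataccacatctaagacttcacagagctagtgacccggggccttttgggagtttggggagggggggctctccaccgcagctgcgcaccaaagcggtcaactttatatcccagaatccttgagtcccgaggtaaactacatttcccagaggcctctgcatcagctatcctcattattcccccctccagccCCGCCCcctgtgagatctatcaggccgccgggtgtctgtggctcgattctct
Zfp467 (chr6:48445041-48445340, minus strand): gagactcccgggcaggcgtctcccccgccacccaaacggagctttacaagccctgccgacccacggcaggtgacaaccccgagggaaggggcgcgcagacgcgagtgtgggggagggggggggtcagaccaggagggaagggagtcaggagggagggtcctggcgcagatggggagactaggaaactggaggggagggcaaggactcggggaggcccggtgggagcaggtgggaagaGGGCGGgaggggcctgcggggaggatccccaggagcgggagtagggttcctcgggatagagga

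In PBS midbrain the Zfp genes as a group were about as bright as the other genes on the arrays, but few of them were among the bright ones. Brightness is the rank of a probe's background-subtracted intensity among all named probes with a signal in the PBS channel, as a percentile, averaged over the arrays of a replicate. It depends on the probe as well as on the RNA, so the order of genes is an order of spots. The median of the 87 Zfp probes lay at percentile 44.2 and that of all 8997 named probes at 45.0. Of the Zfp probes 1 (1.15%) had a median above percentile 90, against 365 (4.06%) of all named probes, and 5 (5.75%) had one above percentile 75, against 1270 (14.1%). A Zfp probe had a signal in a median of 18 of the 21 PBS channels.

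The 1 probe above percentile 90 was that of Zfp706, a small zinc finger protein known in mouse embryonic stem cells as a repressor of Klf4. Its percentile was 98.8, 92.9, 42.2, 98.4 and 79.8 in the PBS channels of 18 h replicates 1 to 5, 70.2 and 99.1 in those of 72 h replicates 3 and 4, and 98.7, 99.6, 96.7 and 85.5 in those of 192 h replicates 1 to 4. It was at or above percentile 70.2 in every replicate but replicate 3 at 18 h, with a median of 96.7. The next were a probe of Zfp60 (median 80.2, range 31.8 to 89.9), Zfp316 (80.1, 26.4 to 93.5), Zfp617 (75.4, 16.4 to 92.8) and Zfp579 (75.3, 22.8 to 92.2). The RNA decay factor Zfp36l1 had a median of 74.7, Zfp639 one of 70.2, and Zfp219, a partner of Sox9 in cartilage, one of 69.9.

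The dimmest were Zfp467, a factor that turns marrow stromal cells towards fat in place of bone, and Zfp354b, of a family with KRAB domains. Zfp467 had a median percentile of 11.5 (2.0 to 49.8) and a signal in 13 of 21 PBS channels. Zfp354b had a median of 11.9 (1.4 to 77.1), also with a signal in 13 channels. By the median over single channels a probe of Zfp275 (13.8) and Zfp97 (19.8) were also among the 4 lowest. Their medians over replicates were higher, at 33.0 (3.6 to 74.4) and 29.7 (7.7 to 52.9). None of these 4 probes passed the filters for a test. In the tumour channels, which would be the PBS channels if the dyes were read the other way round, Zfp354b was lowest (16.6). Zfp474 (20.6) and Zfp292 (22.2) came next there, and followed Zfp467 and Zfp354b in the PBS channels (18.9 and 20.3). Zfp467, however, had a median of 35.6 in the tumour channels. Zfp706 was highest there too (96.7).

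**Figure D1:**
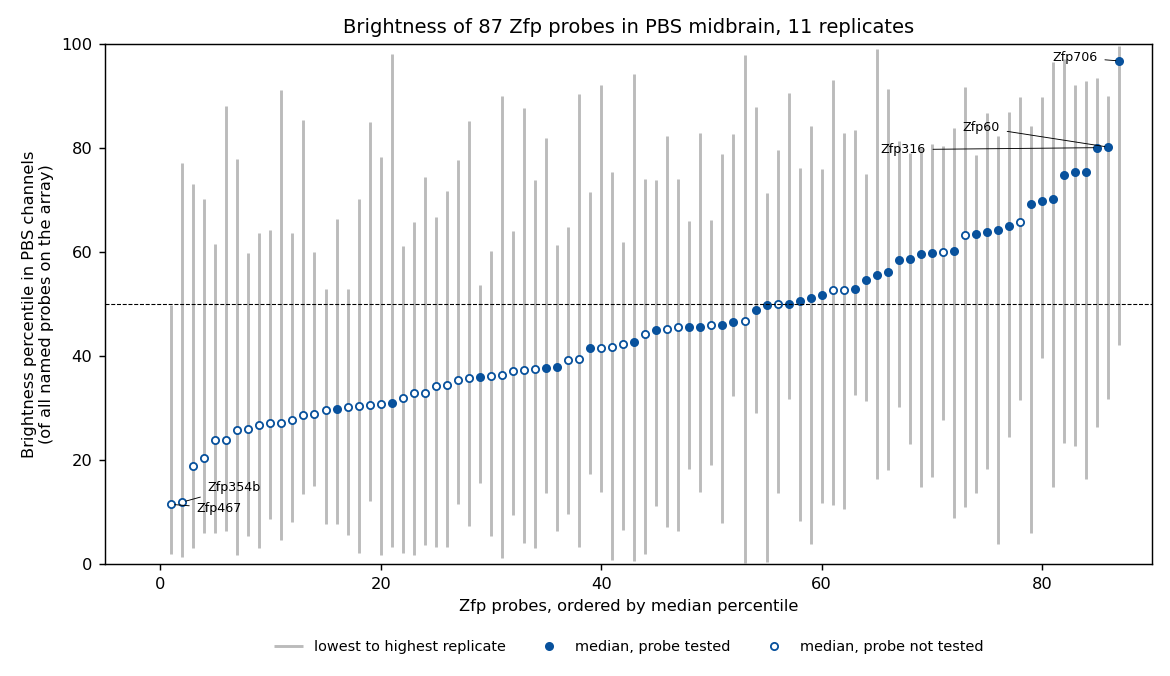
Brightness percentile of each of the 87 Zfp probes in the PBS channels (vertical axis, percentile among all named probes), ordered by the median over up to 11 replicates (points), with grey lines from the lowest to the highest replicate; filled points are probes tested for a ratio. Zfp706 has the highest median, 96.7, Zfp467 the lowest, 11.5, and the ranges of neighbouring probes overlap.

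The order of the Zfp genes was loose. The range of a Zfp probe over the replicates had a median of 67.1 percentile points, against 63.6 over all named probes, and no range was under 38.1. Neighbours in the order did not differ beyond this spread. The ranks of the Zfp probes in a replicate correlated with their mean percentile in the other replicates at Spearman's rho between 0.30 and 0.65 in 8 of the 11 replicates. In 18 h replicates 3 and 4 rho was 0.18 and 0.21, and in 72 h replicate 3 it was -0.042 (86 probes), while all named probes there gave 0.26. Medians from total RNA and from polyA RNA correlated at 0.57 over the 87 probes (0.62 over all named probes), and those from PBS channels in Cy3 and in Cy5 at 0.66 (0.72). Tumour channels gave the Zfp probes a median percentile of 45.2, against 44.2 in PBS channels, with a rho of 0.79 between the probe medians of the 2 conditions, which share their arrays.

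Probes of the same gene did not always share a level. Zfp60, Zfp275, Zfp318, Zfp558 and Zfp618 each had 2 probes. Those of Zfp60 had median percentiles of 80.2 and 31.0, those of Zfp318, a nuclear protein needed for IgD on B cells, 50.05 and 34.4, those of Zfp275 41.8 and 33.0, those of Zfp618 45.0 and 30.4, and those of Zfp558 36.0 and 26.8. The 2 probes of Zfp60 were the widest apart, and in 2 replicates, replicate 3 at 18 h (31.8 and 98.0) and replicate 4 at 192 h (73.0 and 89.2), the probe that was dimmer by its median was the brighter.

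In the genome the Zfp genes on the arrays lie on 18 chromosomes, with 16 of the 82 on chromosome 7, 11 on chromosome 17 and 10 on chromosome 8 (RefSeq, GRCm38.p6). For 34 of the 82 genes the next protein-coding gene on at least 1 side is also a Zfp gene. The same holds for 207 of the 397 protein-coding Zfp genes of that annotation. A run of 10 adjacent Zfp genes at chr7:24081877-24316698 holds Zfp109, Zfp112 and Zfp235, with median PBS percentiles between 25.9 and 45.6, and a run of 7 at chr17:21383707-21664966 holds Zfp51, Zfp53 and Zfp54, between 30.3 and 37.5. Probes of genes in such runs had a median percentile of 40.5 (36 probes, 9 above percentile 50), and those of genes with no Zfp neighbour one of 46.0 (51 probes, 22 above percentile 50). These are descriptions of spots, without a test.

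A promoter of 300 bases was at hand for 66 of the 82 Zfp genes, taking for a gene with several the one with the most CpG. They had a median of 18 CpG and 58.7% G and C, and those of all 6913 named genes on the arrays with a promoter 19 CpG and 59.7%. A GC box was found in 57.6% of the Zfp promoters and 58.1% of the promoters of all named genes on the arrays, a CCAAT box in 37.9% and 37.3%, and TATAAA (either strand) in 6.06% and 9.75%. Over all 27025 genes of the table the shares were 37.3%, 37.4% and 13.7%. Of the promoters printed above, Zfp316 has 25 CpG, Zfp617 21, Zfp354b 10 and Zfp467 18, and each holds 1 GC box. Zfp617 also holds 1 CCAAT box and Zfp354b 1 match to TATAAA. Of the other bright genes, not printed, Zfp60 has 17 CpG and no GC box, and Zfp579 12 CpG and 1 GC box. The number of CpG correlated with the PBS percentile at a Spearman's rho of 0.28 over 66 Zfp genes and of 0.29 over 6913 genes. Genes are not independent replicates, and the probes share their arrays, so these are given without a test.

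The tumour comparison asks whether the midbrain RNA of any Zfp gene differs between tumour-bearing and PBS mice, and when. No Zfp gene passed the threshold at any time, in the mean of the times or between times. The fit was limma's over all 4522 probes with Benjamini-Hochberg adjustment, and no other probe passed either (0% of 4522 in each of the 7 comparisons). Ratios are log2 of tumour over PBS, so a positive value is higher in tumour-bearing mice. The direction rests on reading the scanner's channel A as Cy3 and B as Cy5. The file headers do not state this, but the authors' deposited ratios have signs that go with it, and under the other reading every sign below would turn.

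At 18 h the median ratio of the 40 Zfp probes was 0.02, against -0.0010 over all probes, and their quartiles were -0.10 and 0.11. At 72 h the median was 0.04 (all probes 0.03) and at 192 h -0.01 (all probes -0.0022). Fitted ratios above 0 were found for 23 of 40 Zfp probes at 18 h (49.6% of all probes), 26 at 72 h (57%) and 19 at 192 h (49.2%). The 95% confidence interval of a Zfp ratio reached a median of 0.32 to either side at 18 h, 0.42 at 72 h and 0.31 at 192 h, so smaller changes of a typical member were not detectable. These intervals are not adjusted for the number of probes, and a larger change could also miss the threshold. Zfp202 at 72 h did, at 0.66 (limma adjusted p = 0.522).

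**Figure D2:**
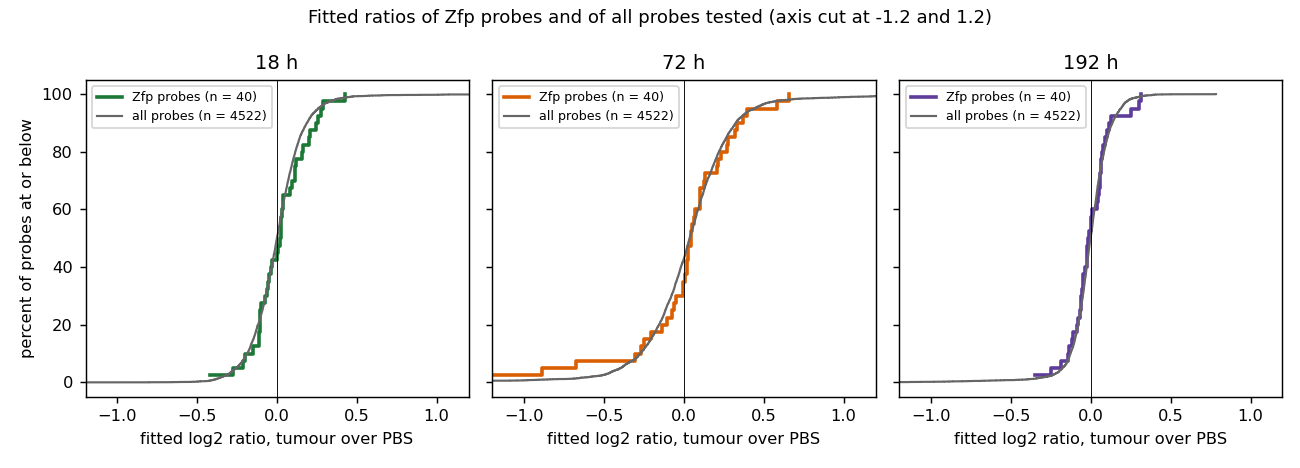
Cumulative share of probes (vertical axis, percent) by fitted log2 ratio of tumour over PBS (horizontal axis) at 18, 72 and 192 h, for 40 Zfp probes (coloured) and all 4522 probes tested (grey). The curves lie close together around 0, with medians of 0.02, 0.04 and -0.01 for the Zfp probes, and at 72 h 1 Zfp probe (Zfp687, -4.34) lies beyond the left edge.

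At 18 h 1 of 40 Zfp probes had an unadjusted p under 0.05, against 5.24% of all probes, and the lowest adjusted p of a Zfp probe by limma was 0.889. It was Zfp101, with replicate values of 1.66, 0.41 and -0.03 in replicates 2, 4 and 5 and none in replicates 1 and 3. The fitted ratio was 0.42 (SE 0.19), and 2 of 3 replicates were above 0. The value of replicate 2 came from 2 arrays below 0, at -0.37 and -0.75, and from array 397, at 6.10. On array 397 only 25.7% of spots were measured in both dyes, and without it the fitted ratio of Zfp101 was -0.13.

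Zfp87 had values of -0.44, 0.15, -0.14, -0.36 and -1.31 in replicates 1 to 5 at 18 h, a fitted ratio of -0.42 (SE 0.19, limma adjusted p = 0.889), and was below 0 in 4 of 5. Without replicate 5, whose value came from array 566 alone (tumour RNA in Cy5), it was at -0.20. Zfp579 had 0.51, 0.59, -0.23, 0.30 and 0.21, above 0 in 4 of 5, and a fitted ratio of 0.27 (SE 0.13), which was 0.08 without replicate 1. Zfp316 had 0.18, -0.07, -0.06, 0.10 and 1.11, so its fitted ratio of 0.25 (SE 0.15) rested on replicate 5, without which it was 0.04. Zfp28 had -0.55, 0.55, -0.63, 0.03 and -0.45, with signs that differed between replicates, and a fitted ratio of -0.21 (SE 0.16), which was -0.37 without replicate 1 and -0.11 without replicate 3. Zfp248, measured in 3 replicates, had -0.45 in replicate 1, 0.26 in replicate 4 and 0.32 in replicate 5, for a fitted ratio of 0.20 (SE 0.14). The plain mean of these values was 0.045, because the dye term of the fit adjusts replicate 1, which has 1 dye orientation alone.

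At 72 h 6 of 40 Zfp probes had an unadjusted p under 0.05, against 8.69% of all probes. Of the 6, 3 were higher (4.78% of all probes were) and 3 lower (3.91%), and the lowest adjusted p by limma was 0.522. The time has 2 replicates in the fit, and the 3 lower Zfp probes were far below 0 in 1 of them. Zfp687, whose human counterpart is altered in a form of Paget's disease of bone, had a ratio of -8.86 in replicate 3 and 0.18 in replicate 4, for a fitted ratio of -4.34 (SE 1.40). The value of replicate 3 came from 1 array, number 445, where the spot lay at percentile 0.039 in the tumour channel and 99.04 in the PBS channel. On the other 3 arrays of that time the same spot lay at percentiles between 43.5 and 68.4 in tumour channels and between 55.9 and 59.3 in the 2 PBS channels with a signal.

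Zfp930 had -1.71 in replicate 3 and -0.07 in replicate 4, and a fitted ratio of -0.89 (SE 0.30). Zfp617 had -1.30 and -0.06 in the same replicates, and a fitted ratio of -0.68 (SE 0.24). For both, replicate 3 was again array 445 alone. The ranks of the Zfp probes in the PBS channel of that array correlated at a rho of 0.028 with their mean percentile in the other replicates, while over all named probes rho was 0.39, and the part of this in the ratios was not tested.

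The 3 Zfp probes with higher ratios were above 0 in both replicates. Zfp202, whose human counterpart ZNF202 represses genes of lipid metabolism, had 1.03 and 0.28 in replicates 3 and 4 and a fitted ratio of 0.66 (SE 0.20, limma adjusted p = 0.522). Its 4 arrays gave 0.42, 1.64, 0.34 and 0.22, the 1.64 from array 447. Zfp579 had 0.75 and 0.42 (fitted 0.58, SE 0.21) with 4 arrays at 0.44, 1.05, 0.77 and 0.07, and Zfp248 had 0.22 and 0.57 (fitted 0.40, SE 0.16), both with tumour RNA in Cy5. All arrays on which Zfp202, Zfp579 and Zfp248 were measured at 72 h were above 0, some on dim spots. On array 456 the PBS spot of Zfp202 lay at percentile 0.77 and that of Zfp248 at 0.38, and on array 445 Zfp248 lay at 5.5 in the tumour channel and 12.03 in the PBS channel. The fitted ratio of Zfp202 was 0.15 with the authors' deposited ratios, 0.20 without background subtraction and 0.34 over all 28 arrays, and that of Zfp248 was 0.22 without replicate 4. That of Zfp579 ranged between 0.18 and 0.72 over the other processing settings tried. Across all probes 52.7% had 1 sign in both replicates of 72 h, and 22 of the 40 Zfp probes did.

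Without array 447, the fitted ratios at 72 h were 0.42 for Zfp202, 0.56 for Zfp579, 0.62 for Zfp248, -0.55 for Zfp617, -0.65 for Zfp930 and -3.59 for Zfp687, and no Zfp probe passed. The count with an unadjusted p under 0.05 was then 6 of 38 Zfp probes, while that of all probes fell to 178 of 4374 (4.07%). Zfp248, Zfp617, Zfp930 and Zfp687 had no value on array 447, so its removal took no value from them. Their ratios moved because the dye term then took replicate 3 as tumour RNA in Cy5 alone. Without replicate 3 Zfp687 was at 0.18, Zfp930 at -0.07, Zfp617 at -0.06 and Zfp202 at 0.28. Without replicate 4, where the fit rests on replicate 3 and assumes that it varies like the other times, 4 of 43 Zfp probes passed (9.30%), namely Zfp202, Zfp617, Zfp687 and Zfp930. So did 293 of all 4971 probes (5.89%). In that fit 3 Zfp probes each passed for 72 h minus 18 h (3.7% of all probes), for 192 h minus 72 h (3.94%) and for the mean of times (3.12%).

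**Figure D3:**
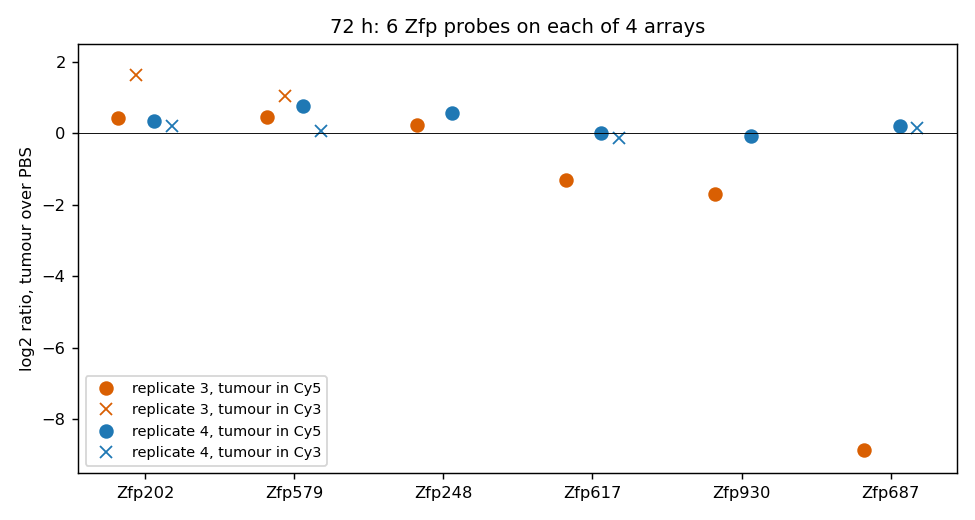
Log2 ratio of tumour over PBS (vertical axis) on each of the 4 arrays of 72 h for the 6 Zfp probes with the smallest p at that time; colours are the 2 replicates, circles tumour RNA in Cy5 and crosses tumour RNA in Cy3, and a missing symbol is a missing value. Zfp202 and Zfp579 are above 0 on all 4 arrays, while the low values of Zfp617, Zfp930 and Zfp687 stand on 1 array of replicate 3.

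At 192 h 1 of 40 Zfp probes had an unadjusted p under 0.05, against 0.929% of all probes, and the lowest adjusted p by limma was 1.00. Zfp398 had 0.10, 0.89, 0.26 and -0.05 in replicates 1 to 4, a fitted ratio of 0.30 (SE 0.13), and was above 0 in 3 of 4. Without replicate 1 it was at 0.19 and without replicate 2 at 0.16. Zfp62 had -0.38, -0.06, -0.09 and -0.23, all below 0, for a fitted ratio of -0.19 (SE 0.12), which was -0.10 without replicate 1. The brighter probe of Zfp60 had -0.19, -0.02, -0.05 and -0.73, also all below 0, for a fitted ratio of -0.25 (SE 0.12). Replicate 4 made this ratio more than 1.5 times larger, since it was -0.09 without it. The value of replicate 4 came from -1.90 on array 509 (tumour RNA in Cy5) and 0.43 on array 510 (tumour RNA in Cy3). Arrays of replicate 2 (-0.15 and 0.11) and of replicate 3 (0.03 and -0.13) also differed in sign. The other probe of Zfp60 was not lower, with -0.07, 0.08, 0.20 and 0.14 and a fitted ratio of 0.09 (SE 0.12).

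Zfp169 had 0.20, 0.23 and 0.36 in replicates 1, 3 and 4 and no value in replicate 2, and a fitted ratio of 0.32 (SE 0.20). Zfp763 had -0.02, 0.64, -0.18 and 0.57, for 0.25 (SE 0.13), which was 0.40 without replicate 3 and 0.15 without replicate 4. Zfp28 had -1.49, 0.52, 0.22 and -0.64, 2 replicates on each side of 0, for -0.35 (SE 0.18), which was -0.17 without replicate 1 and -0.54 without replicate 3. Of the 40 Zfp probes 4 had 1 sign in every replicate with a value at 192 h (9.44% of all probes), and 1 at 18 h (10.1%).

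**Figure D4:**
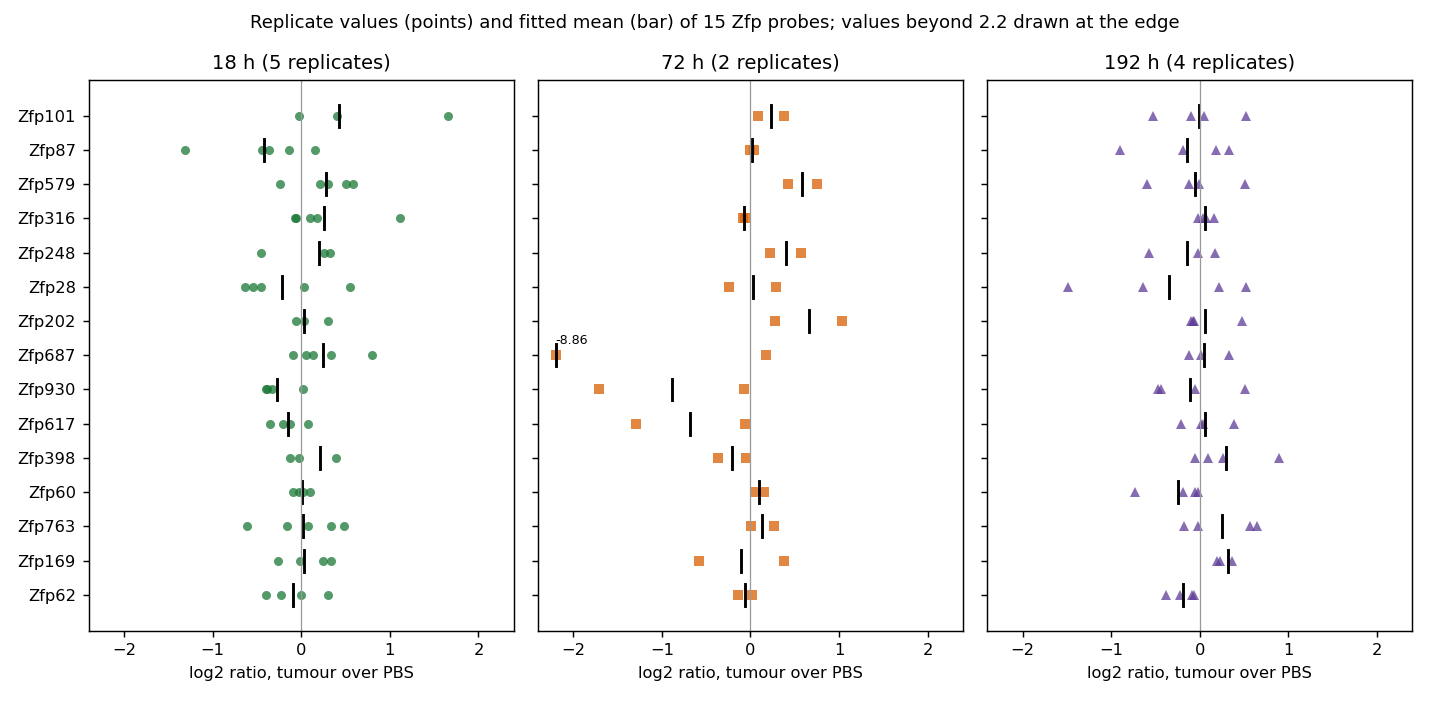
Log2 ratio of tumour over PBS (horizontal axis) of each replicate (points) and the fitted mean (black bar) at 18, 72 and 192 h for the 15 Zfp probes with the smallest p in 1 of the comparisons. Most probes have replicates on both sides of 0, and the -8.86 of Zfp687 at 72 h and its fitted mean (-4.34) are drawn at the left edge.

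No difference between times passed for a Zfp probe. The difference of 192 h minus 18 h had no Zfp probe with an unadjusted p under 0.05, against 2.19% of all probes. The Zfp probes with the smallest p were Zfp101 at -0.44 (SE 0.24), Zfp248 at -0.34 (SE 0.19), Zfp579 at -0.33 (SE 0.20) and Zfp60 at -0.25 (SE 0.17), each with a limma adjusted p of 0.998. Leaving out 1 replicate took Zfp101 to -0.21 (192 h replicate 2), Zfp579 to -0.14 (18 h replicate 1) or -0.21 (192 h replicate 1) and Zfp60 to -0.09 (192 h replicate 4), and without array 397 Zfp101 was at 0.12. Zfp248 had 3 values at 18 h and 3 at 192 h and could not be refitted without any of them. Over the other processing settings tried it lay between -0.39 and -0.06. For 72 h minus 18 h 2 Zfp probes of 40 had such a p (6.3% of all probes), and for 192 h minus 72 h 6 (5.82%). The mean of the times gave 4 Zfp probes (5.62% of all probes), namely Zfp930 at -0.43 (SE 0.14), Zfp579 at 0.27 (SE 0.10), Zfp202 at 0.25 (SE 0.10) and Zfp617 at -0.26 (SE 0.12), with adjusted p of 0.850 each by limma. Without replicate 3 of 72 h these means were -0.15 for Zfp930, 0.12 for Zfp202 and -0.05 for Zfp617, and without replicate 4 of 72 h Zfp930 was at -0.70, Zfp202 at 0.37 and Zfp617 at -0.47. Over all 28 arrays that of Zfp202 was 0.0065, and over the other processing settings tried that of Zfp579 lay between 0.11 and 0.33. No Zfp probe had 1 sign in all its replicates, as 0.133% of all probes did.

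The ratios differed between the dye orientations. In the 7 replicates hybridised in both orientations, a Zfp probe and replicate with a value in both had opposite signs in 125 of 194 cases (64.4%), against 58.8% over all probes. Between the orientations of a replicate the Zfp probes correlated at Pearson's r between -0.68 and -0.00057, and all probes between -0.66 and 0.06, given as descriptions over probes that share arrays. Averaged over all arrays of an orientation, 27 of the 40 Zfp probes had opposite signs (67.5%), against 63.8% of all probes. Zfp28 was at -0.60 with tumour RNA in Cy5 (8 arrays) and at 0.39 with tumour RNA in Cy3 (8 arrays), Zfp87 at -0.57 and 0.19, and Zfp281 at 0.17 and -0.30. Zfp202 had the same sign in both, at 0.20 (7 arrays) and 0.25 (9 arrays). Zfp579 was near 0 with tumour RNA in Cy5, at 0.0068 (9 arrays), and at 0.42 with tumour RNA in Cy3 (11 arrays). Zfp101 was at 0.16 (7 arrays) and 0.56 (10 arrays), but without array 397 the mean of the other 9 arrays with tumour RNA in Cy3 was -0.06. The fit has a dye term, which the 4 replicates of polyA RNA set. In a replicate of total RNA a probe with a value in 1 orientation alone is not balanced, which was so for Zfp687, Zfp930 and Zfp617 in replicate 3 of 72 h. Zfp248 and Zfp930 had ratios with tumour RNA in Cy5 alone in both 72 h replicates.

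**Figure D5:**
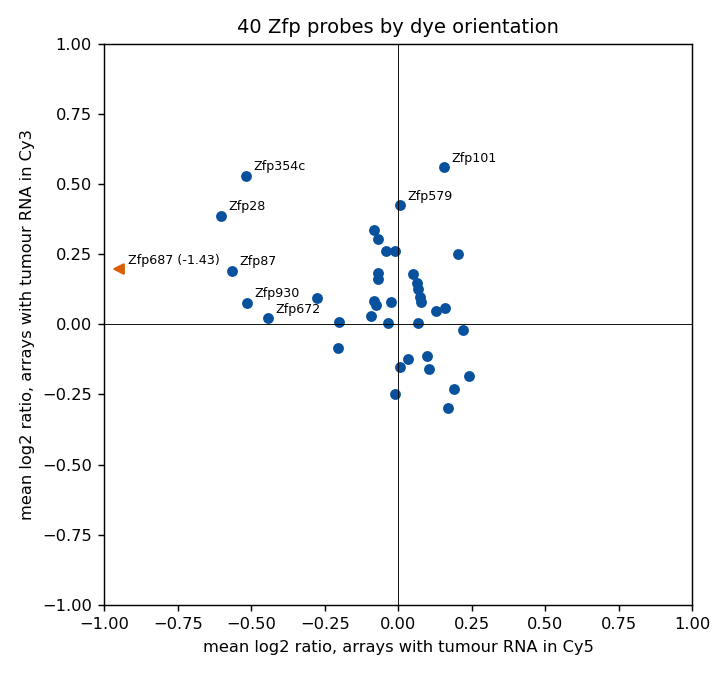
Mean log2 ratio of tumour over PBS of each of the 40 tested Zfp probes on arrays with tumour RNA in Cy5 (horizontal axis) and on arrays with tumour RNA in Cy3 (vertical axis); Zfp687 (-1.43) is drawn at the left edge. Of the 40 probes 27 lie in the upper left or lower right area, where the 2 orientations differ in sign.

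Of the members listed for known roles, none of those tested passed, and others were too dim or had too few values for a test. Zfp36 encodes tristetraprolin, which shortens the life of Tnf messenger RNA. It had -0.75, -0.06 and 0.33 in 18 h replicates 3 to 5, -0.80 and -0.28 in 72 h replicates 3 and 4, and -0.39, 0.45, 0.06 and -0.18 in 192 h replicates 1 to 4. By its mean percentile over both channels (34.3) it was too dim for a test. Both 72 h values were below 0, but that of replicate 3 came from 0.02 on array 445 and -1.61 on array 447. The signs differed at the other times.

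Zfp36l1, of the same family, had -0.32, 0.42, 0.0081 and 0.34 in 18 h replicates 2 to 5, 0.54 and -0.0067 at 72 h, and -0.29, 0.11, -0.08 and 0.06 at 192 h. Its fitted ratios were 0.11 (SE 0.15) at 18 h, 0.27 (SE 0.20) at 72 h and -0.05 (SE 0.14) at 192 h. Of 30 genes of deadenylation, decapping and RNA decay that work with this family, 12 were tested and none passed at any time, with median ratios of -0.04, 0.04 and -0.02 at 18, 72 and 192 h. With p under 0.05 unadjusted there was 1 of the 12, at 72 h (8.69% of all probes). It was Exosc3, a core subunit of the RNA exosome, at -1.18.

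Zfp57 protects imprinted loci from losing their DNA methylation by recruiting Trim28. It had 0.19, -0.08, 0.17, 0.15 and 0.13 in 18 h replicates 1 to 5, 0.17 and -0.03 at 72 h and 0.03, 0.36, -0.13 and 0.19 at 192 h, above 0 in 8 of 11 replicates. The fitted ratios were 0.11 (SE 0.09), 0.07 (SE 0.15) and 0.11 (SE 0.10), with limma adjusted p of 0.943, 0.929 and 1.00. Zfp42, known as Rex1 and a marker of embryonic stem cells, had -0.38, -0.30 and 0.10 in 18 h replicates 3 to 5, 0.48 in 72 h replicate 3, and 0.03, 0.24 and -0.36 in 192 h replicates 1 to 3, and was not tested.

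Of 30 genes of the KRAB corepressor machinery, 7 were tested and none passed at any time, with medians of 0.03, 0.13 and 0.05. Trim28 itself had fitted ratios of 0.01, -0.38 and 0.11 at 18, 72 and 192 h. The 1 gene of the 7 with an unadjusted p under 0.05 was Mbd3, of the NuRD repressor complex, at -0.40 at 72 h (8.69% of all probes). Of 70 genes of other C2H2 families 23 were tested and none passed, with medians of -0.04, 0.08 and -0.02. Of these 23, Plagl2 (0.84), Ikzf2 (0.48) and Zscan2 (-0.46) had an unadjusted p under 0.05 at 72 h, against 8.69% of all probes. At 18 h Hivep2 (-0.26) had, against 5.24% of all probes.

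Of the genes listed for neural development only Zfp423 and Zfp292 were on the arrays, and neither was tested. Zfp423, needed for the growth of the cerebellum in mice, had -0.14, -0.36, -0.32, 0.04 and 0.22 in 18 h replicates 1 to 5, -0.28 in 72 h replicate 3, and 0.13, -0.23, -0.01 and 0.24 at 192 h. Zfp292 had -0.08, -0.08 and -0.19 in 18 h replicates 2, 4 and 5, 0.0067 in 72 h replicate 3, and 0.04 and 0.04 in 192 h replicates 1 and 3. Neither gene kept 1 sign over all its replicates.

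None of the widely expressed regulators that were tested passed. Zfp706, the brightest, had -0.10, 0.06, -0.50, 0.09 and -0.06 at 18 h, 0.40 and 0.03 at 72 h, and -0.08, -0.09, -0.05 and -0.05 at 192 h, for fitted ratios of -0.10 (SE 0.10), 0.22 (SE 0.16) and -0.07 (SE 0.11). All 4 of its values at 192 h were below 0, and at the other times the signs differed or were above 0. Its 0.40 at 72 h came from -0.16 on array 445 and 0.95 on array 447. Zfp281, a factor of embryonic stem cells that binds GC-rich DNA, had 0.32, -0.40, 0.06, 0.01 and -0.13 at 18 h, -0.46 and -0.08 at 72 h and 0.37, -0.44, 0.14 and 0.08 at 192 h. Its fitted ratios were -0.03 (SE 0.08), -0.27 (SE 0.13, limma adjusted p = 0.595) and 0.04 (SE 0.09), with both 72 h replicates below 0. At both 18 and 192 h its replicate 1, with tumour RNA in Cy5, was the highest and its replicate 2, with tumour RNA in Cy3, the lowest.

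Zfp639 had 0.47, -0.06, -0.86, 0.04 and 0.21 at 18 h, -0.07 and 0.08 at 72 h and -0.11, 0.04, 0.13 and -0.16 at 192 h. The brighter probe of Zfp318 had 0.08, 0.18, -0.42, -0.38 and 0.23 at 18 h, -0.24 and -0.04 at 72 h and 0.48, -0.25, 0.25 and -0.24 at 192 h. Its other probe, not tested, had 0.17, 0.15, 0.17 and -0.08 in 18 h replicates 2 to 5, 0.18 and -0.02 at 72 h and 0.05, 0.06, -0.15 and -0.30 at 192 h. The fitted ratios of Zfp281, Zfp639, Zfp706 and the tested probe of Zfp318 had medians of -0.05, -0.07 and 0.0059 at the 3 times.

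Zfp385a, Zfp346 and Zfp131 were not tested. Zfp385a, an RNA-binding protein and p53 cofactor also called Hzf, had 0.06, -0.05, -0.45, -0.31 and 0.24 at 18 h, 0.03 in 72 h replicate 3 and 0.24, -0.12, 0.02 and 0.20 at 192 h. Zfp346, which binds double-stranded RNA, had -0.54, 0.47, -0.68 and 0.0061 in 18 h replicates 1, 2, 4 and 5, -0.0020 in 72 h replicate 4 and 0.27, 0.17 and 0.64 in 192 h replicates 2 to 4. Zfp131, with a BTB domain, had -0.16 and 0.18 in 18 h replicates 4 and 5, -0.33 and 0.43 at 72 h and 0.16 and 0.52 in 192 h replicates 3 and 4. At 192 h Zfp346 and Zfp131 were above 0 in each replicate with a value, 3 and 2 of them.

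By position in the genome, the 16 tested probes of genes next to another Zfp gene had median fitted ratios of 0.05, 0.02 and -0.0052 at 18, 72 and 192 h, and the 24 of genes with no Zfp neighbour -0.01, 0.05 and -0.02. The difference between these lists was not tested.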

How the data were processed

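Per the labels, midbrain RNA was reverse transcribed, labelled with Cy3 and Cy5 and hybridised in pairs to printed arrays. The deposited scanner files hold an intensity for each spot in 2 channels, in 3 scans of each of the 21 arrays used, from which, per the file headers, local background had been subtracted. The deposited series matrix holds the authors' log ratios (other unit, of unstated log base), and these served as an alternative only. No source used here gives the scanner software or how that matrix was normalized.

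Each scan was normalized by loess (span 0.3, 4 iterations) as log2 of tumour over PBS. Scans, spots of an accession and arrays of a replicate were then averaged. Probes among the dimmest 33.3%, ordered by their mean percentile over both channels, were not tested. Values in 3 replicates at 18 and 192 h and 2 at 72 h were required. limma 3.58.1 in R 4.3.3 fitted 1 mean per time plus a term for the dye to 4522 probes of 4442 genes, with Benjamini-Hochberg adjustment at 0.05, and tables were made with pandas 2.3.3. The procedure was tested on simulated data. Nothing says that replicates came from separate animals, so p-values measure the spread between these samples, which may be technical. Their number limits the precision.

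Arrays numbered under 309, which include 72 h replicates 1 and 2, were left out. Genes named with values are the 6 with the smallest p at each time, the 4 with the smallest p for 192 h minus 18 h and for the mean of times, the 6 brightest and 4 dimmest in PBS channels (with a signal in at least 50 percent of them), the members of 4 role lists and genes with several probes. Other genes named for their brightness, position or dye orientation were chosen after their values were seen. Members and lists were chosen with earlier results of these data known. Promoters and positions come from RefSeq (GRCm38.p6). Protein features were not analysed here. The alternatives tried were other normalizations, filters, scans and RNA types, the authors' values, a replicate block, and fits without array 447, array 397 or each replicate.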

Additional observations from a re-analysis of the deposited data

Results flagged for a closer look

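In 4 of the 47 groups of 4 or 5 replicates checked, 1 replicate stood apart from the others by Dixon's test, and chance gives about 1 in 20, or 2.35 groups. Zfp316 was at 1.11 in replicate 5 at 18 h, where the others lay between -0.07 and 0.18, and array 567 of that replicate gave 2.23. Zfp202 was at 0.47 in replicate 2 at 192 h, and the others lay between -0.10 and -0.07. Zfp57, the imprint factor, was at -0.083 in replicate 2 at 18 h, and the others lay between 0.13 and 0.19. The dimmer probe of Zfp318 was at -0.081 in replicate 5 at 18 h, with the others between 0.15 and 0.17. Both values of replicate 2 are from polyA RNA with tumour RNA in Cy3 alone, and the part of the dye in them was not tested.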

How the results depend on the processing

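No Zfp probe was called at any time under the 15 other settings at 18 and 192 h and the 14 at 72 h, which could not be fitted with polyA RNA alone. The median Zfp ratio at 18 h was -0.078 with the first scan only, and ranged over the other settings up to 0.05. The median PBS percentile was 39.3 with PBS in Cy5 alone, against 44.2. Leaving out 1 replicate at a time gave 0 to 4 calls at 72 h, 0 to 3 for 72 h minus 18 h, 0 to 3 for 192 h minus 72 h and 0 to 3 for the mean of times. All of these calls came without replicate 4 of 72 h, where the fit rests on replicate 3 alone, and the cause was not tested. Without that replicate 3 Zfp687 was at 0.18 at 72 h. Over the same fits the medians ranged between -0.04 and 0.03 at 18 h, -0.0023 and 0.05 at 72 h, and -0.05 and 0.04 at 192 h. Without array 397, chosen after seeing the data, Zfp101 was at -0.13 at 18 h and 0.12 for 192 h minus 18 h. With the authors' deposited values Zfp316 was at -0.033 at 18 h, and Zfp930 at 0.26 at 72 h and 0.081 in the mean of times. With median centring Zfp62 was at 0.017 at 192 h. For these the cause was not tested. Replicate numbers were not taken as pairing the samples, since not every pair with the same number correlated over 0.1. Of these pairs 5 of 8 did (-0.13 to 0.33, median 0.11), against 8 of 30 with different numbers (-0.30 to 0.18, median -0.04). The check cannot settle whether the samples were paired. Its 2 highest pairs with the same number, replicates 2 (0.33) and 1 (0.18) of 18 and 192 h, also shared their dye orientation. At 72 h the 2 replicates deviate from their mean by equal and opposite amounts. With the replicate block 0 Zfp probes and 3 other probes were called at 72 h, and the Zfp medians were 0.0065, 0.06 and 0.01. Dim spots limit the study: 47 of 87 Zfp probes could not be tested.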
